A study of Saccharomyces cerevisiae with 4 samples.

Results

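The ribosome-bound transcripts of yeast under reductive stress were compared with those of unstressed yeast, on 1 array of polysomal RNA from cells given dithiothreitol (DTT) and 1 array of polysomal RNA from control cells. These are 2 of the 4 arrays of the series, chosen by their sample titles; the sub-polysomal arrays were not used. The DTT group is Saccharomyces cerevisiae BY4741 (MATa his3Δ1 leu2Δ0 met5Δ0 ura3Δ0, as the labels write the genotype) that received 2 mM DTT for 1 h at an OD600 of 0.5, and the control group is the same strain given the same volume of water. Both groups grew at 30 °C in rich medium with 2% glucose, took cycloheximide at 0.1 mg/mL to hold ribosomes on their transcripts, and were lysed and run on sucrose gradients of 15 to 60% in buffers that themselves held 0.5 mM DTT. RNA from 3 extracts of each treatment was pooled, and 5 µg was labelled for each array. A change in the total amount of RNA on ribosomes is therefore not visible here, and every value below says how a transcript stood relative to the other ribosome-bound transcripts. With 1 array a group (n = 1 each) there is no spread between replicates and no test.

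DTT is a reducing agent that blocks the disulphide bonds which secreted proteins need to fold in the endoplasmic reticulum (ER). The sensor Ire1 then splices the HAC1 transcript, whose intron otherwise holds back its translation, and the Hac1 transcription factor raises genes for folding, modifying, moving and clearing secretory proteins, which is the unfolded protein response. A polysome is a transcript that carries several ribosomes, so the polysomal array reads the transcripts in use for protein synthesis. Because transcript abundance and ribosome loading both set that signal, a change on these arrays alone cannot be assigned to either.

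Of 5656 genes with a probe set that names 1 gene, 4294 were measured, meaning that a probe set lay above the 40th percentile of its array on both arrays (intensities of 15.9 with DTT and 17.6 in control). Values are log2 intensity ratios, DTT minus control, after each array was centred on its median. Over the measured genes 189 (4.4%) were at least 2-fold higher with DTT and 298 (6.94%) at least 2-fold lower, together 487 (11.3%). Centred on the hybridisation controls, which are bacterial and phage transcripts added in equal amounts, that split was 335 higher and 170 lower. This centring shifts every log2 ratio by the same amount. The 189 higher genes therefore lie among the 335, and the 170 among the 298, by construction. The log2 ratios had an interquartile range from -0.47 to 0.27 around a median of -0.10, and 1804 of the 4294 were above 0. For scale, several measured probe sets of 1 gene differed by an SD of 0.43 (log2, over 193 genes). That SD covers probe sets on the same arrays and says nothing about cultures, extracts or hybridisations. Among the genes just inside the 2-fold limit were the protein transport gene SEC17 (log2 1.01) and the thioredoxin gene TRX2 (log2 1.01). Among those just outside it were the chitin synthase gene CHS1 (log2 0.99) and the coatomer gene SEC27 (log2 0.99). Others lay closer still, such as BUD7 (log2 1.0011) and, on the lower side, HTB2 (log2 -1.0009) and BTT1 (log2 -0.9998).

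The Spearman correlation of the arrays over all probe sets was 0.947. The 3' probe set of actin read 1.48 times its 5' probe set with DTT and 1.52 times in control. For SPT15, the other yeast gene so compared, the ratio was higher, 3.12 with DTT and 3.11 in control. Of all signal 20.8% with DTT and 26.0% in control lay in the 100 brightest probe sets. The hybridisation controls averaged 207 with DTT and 240.0 in control (geometric means). Each array was washed and scanned on its own, so the array run and the treatment cannot be told apart. Of the genes that mark a MATa cell, 6 of 7 were measured on both arrays; of those that mark an alpha cell, SAG1 was (46.1 with DTT against 31 in control) and STE3 and the alpha-factor genes were not. The deleted markers URA3 and LEU2 lay under the floor on both arrays. HIS3 was measured (80.0 with DTT against 105 in control), and so was MET5 (149.5 with DTT against 96.7 in control), both of which the labels give as deleted. MET17, the methionine gene commonly deleted in BY4741, read 0.9 with DTT against 7.1 in control.

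**Figure D1:**
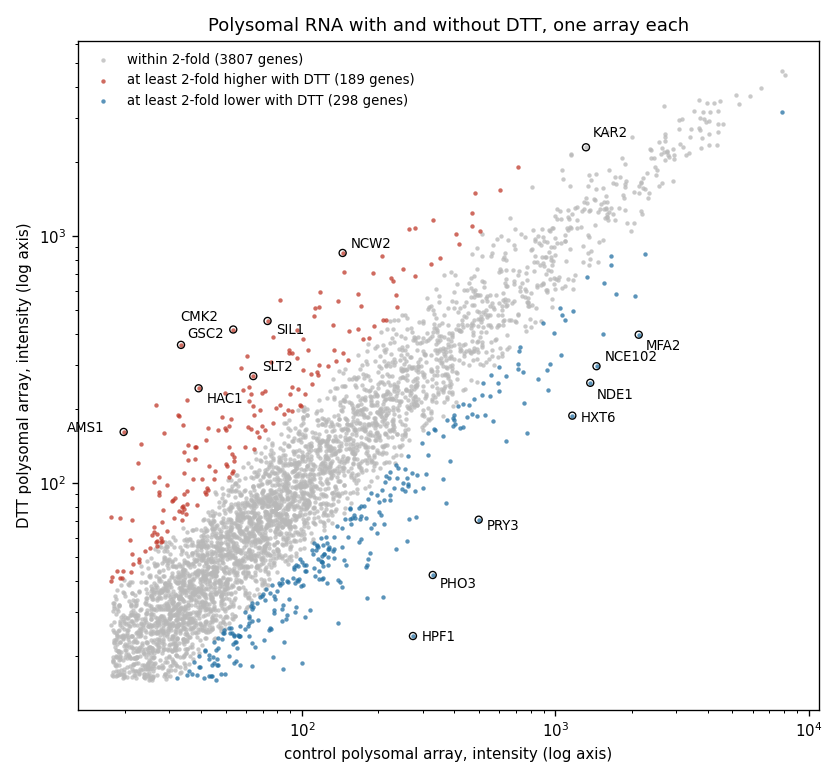
Intensity of each of the 4294 measured genes in polysomal RNA, DTT array (vertical, log axis) against control array (horizontal, log axis). Red points are the 189 genes at least 2-fold higher with DTT, blue points the 298 at least 2-fold lower and grey points the rest; circles mark named genes, from GSC2 at 362 with DTT against 33.3 in control to HPF1 at 24 with DTT against 274 in control.

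The highest genes included some of the secretory pathway and some of the cell wall, beside others. Among the 3541 genes above the median intensity of both arrays, GSC2, which encodes the stress-induced subunit of the glucan synthase that builds the cell wall, came first. It read 362 with DTT and 33.3 in control, 10.6-fold higher (log2 3.40), and its 4 probe sets lay between 2.88 and 3.89. CMK2, a calmodulin-dependent protein kinase gene, read 418 with DTT against 53.6 in control. The filamentous growth gene NFG1 stood at 551 with DTT against 82 in control, and SIL1, which exchanges nucleotide on the ER Hsp70, at 453 with DTT against 73.2 in control. In each of these 4 the DTT value was more than 6 times the control value. HAC1 itself read 242 with DTT and 39.1 in control, 6.02-fold higher over 3 probe sets, none of the plain kind that is designed to match 1 transcript; with no floor the log2 ratio was 1.93. NCW2, for a protein of the cell wall, was the brightest of the 12 highest genes on the DTT array, 854 with DTT against 145 in control. ERO1, the oxidase that feeds disulphide bonds into the ER, read 188 with DTT against 32.4 in control, and COS8, of a family that sorts membrane proteins for turnover, 325 with DTT against 60.5 in control. The 2 probe sets of COS8 differed in size (1.57 and 3.20) though not in direction, and with the floor at the 60th percentile the gene's log2 ratio was 1.52. The remaining 4 open reading frames carry no standard gene name: YOR289W (log2 2.58), YOR385W (log2 2.47), YIL060W (log2 2.31) and YER138W-A (log2 2.30). As for HAC1, none of the 3 probe sets read for YIL060W is plain, nor is the 1 read for YER138W-A. Whether similar transcripts add to the signal of YIL060W and YER138W-A was not tested.

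At the other end stood PHO3, the constitutive acid phosphatase gene, which read 42.4 with DTT and 328 in control, 7.95-fold lower. PRY3, for a cell wall protein, read 71 with DTT against 498 in control, and the high-affinity glucose transporter gene HXT6 187 with DTT against 1167 in control on a probe set that its near-identical neighbour HXT7 may share. RAS1, a GTPase gene of nutrient signalling, read 34.6 with DTT against 209.5 in control. All 4 were more than 6-fold lower. The mitochondrial NADH dehydrogenase gene NDE1 (254 with DTT against 1373 in control), the a-factor pheromone gene MFA2 (398 with DTT against 2133 in control) and the eisosome gene NCE102 (297 with DTT against 1454 in control) were bright in control cells and about 5-fold lower with DTT. The adenine deaminase gene AAH1 (log2 -2.39), the phospholipase gene PLB2 (log2 -2.45), the cell separation gene EGT2 (log2 -2.31), the membrane protein gene INA1 (log2 -2.20) and FAR1 (log2 -2.19), whose protein halts the cell cycle in response to pheromone, completed the 12. Lower still, though below the DTT array's median and named here after its values were seen, was the cell wall mannoprotein gene HPF1, at 24 with DTT against 274 in control (log2 -3.55).

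**Figure D2:**
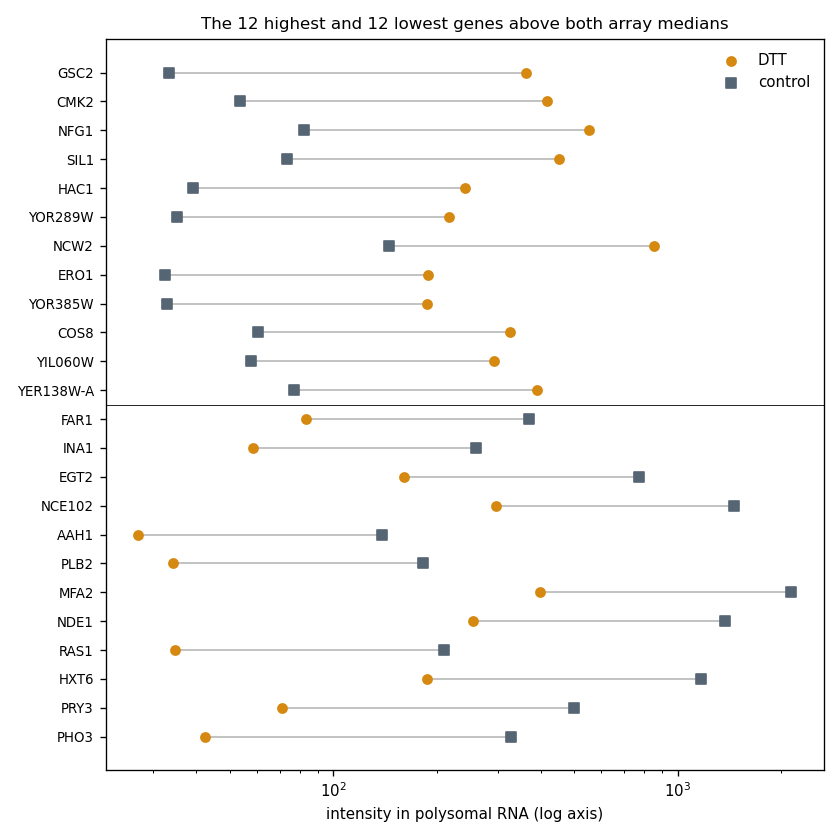
Intensity on the DTT array (circles) and the control array (squares), log axis, of the 12 highest genes (upper block) and 12 lowest genes (lower block) by log2 ratio among the 3541 above both medians. The largest gap in the upper block is GSC2, 362 with DTT and 33.3 in control, and in the lower block PHO3, 42.4 with DTT and 328 in control.

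To read the change by function, 65 gene lists were set beside the all-gene values; 63 of them had at least 3 measured genes. A list is said to stand apart when its median lay at least 0.4 (log2) from the all-gene median, which 10 lists did on the higher side and 11 on the lower. That is a description of these arrays, not a test. Of the lists, 62 fall into 12 themes and 3 hold strain markers, of which the a cell genes are among the 11. The 5 themes of the secretory pathway hold 216 measured genes (5.03% of all) and 32 of the 189 higher genes (16.9%), against 1 of the 298 lower ones. Translation and ribosome making hold 323 genes, of which 0 were 2-fold higher and 74 at least 2-fold lower (24.8% of all lower genes). The cell surface held many of both directions: 15 of its 176 genes were 2-fold higher and 37 at least 2-fold lower. Genes on no list were 2843 of those measured (66.2%) and made up 112 of the higher and 143 of the lower genes. Of these 2843, 3.94% were 2-fold higher and 5.03% lower, against 4.4% and 6.94% of all measured genes.

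**Figure D3:**
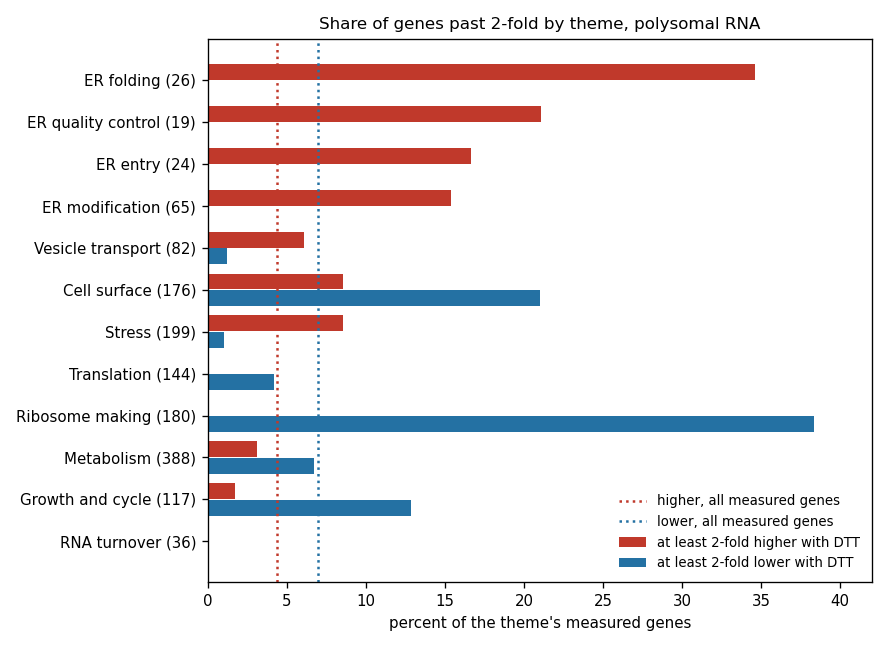
Percent of each theme's measured genes (number in brackets) that were at least 2-fold higher (red bars) or lower (blue bars) with DTT; dotted lines give the shares over all measured genes, 4.4% higher and 6.94% lower. ER folding had the largest higher share, 34.6%, and ribosome making the largest lower share, 38.3%.

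Folding in the ER came first. The ER Hsp70s and their co-chaperones had a median log2 ratio of 1.40, the highest of any list, with 5 of 6 measured members 2-fold higher and 6 of 6 above 0. LHS1, the second Hsp70 of the ER, read 229 with DTT and 62.7 in control (log2 1.83). JEM1 and SCJ1, J-domain proteins that work with the main Hsp70, stood at log2 ratios of 1.68 and 1.12 and the translocon J protein SEC63 at a log2 ratio of 1.07. KAR2, the main Hsp70, was the brightest of the group on either array, 2286 with DTT against 1321 in control, and had the smallest ratio (log2 0.75). The thiol oxidases and isomerases were more uneven, with a median log2 ratio of 0.46 and 2 of 6 past 2-fold. ERO1 and the isomerase gene EUG1 (181 with DTT against 52.6 in control) led, PDI1, the essential isomerase, was at a log2 ratio of 0.45 and the membrane isomerase gene EPS1 at a log2 ratio of -0.24. MPD1, another isomerase gene, lay above the floor with DTT only (127.5 with DTT against 17.1 in control), at least 7.05-fold higher when the floor stands in for the control value. Of the prolyl isomerases and glycan-dependent folding factors, FPR2 stood out (336 with DTT against 91.8 in control, log2 1.83), the cyclophilin gene CPR5 was at a log2 ratio of 0.39 and the calnexin gene CNE1 at a log2 ratio of -0.42. The signalling list had a median log2 ratio of -0.12 with HAC1 as its only member past 2-fold; the phosphatase gene PTC2 was at a log2 ratio of -0.038 and the transcription factor gene GCN4 at a log2 ratio of -0.12.

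Entry into the ER and clearance from it were higher in parts. The signal peptidase complex, which cuts signal peptides from entering proteins, had a median log2 ratio of 0.79 over 3 measured subunits: its catalytic subunit SEC11 read 137 with DTT against 65 in control, and SPC3 and SPC2 stood at log2 ratios of 0.79 and 0.74. In the translocon list (median log2 -0.029, 3 of 21 at least 2-fold higher) the post-translational partners SEC66 (log2 1.26), SEC72 (log2 1.20) and SEC62 (log2 0.80) were above 0, the channel subunit SEC61 was at a log2 ratio of -0.046, and the signal recognition particle gene SRP54, which serves entry during translation, at a log2 ratio of -0.45. Of the small channel subunits SBH1 stood at a log2 ratio of 1.04 and SSS1 at a log2 ratio of 0.59. Genes of ER-associated degradation had a median log2 ratio of 0.29 with 4 of 19 at least 2-fold higher. HRD1, the ligase, read 164 with DTT against 46.7 in control, its membrane partner DER1 97.7 with DTT against 29.4 in control and the scaffold gene USA1 190.3 with DTT against 85.2 in control; the fourth was the proteasome subunit RPN1 (log2 1.16), known in this setting as HRD2. The cytosolic extraction factors CDC48 (log2 0.27), UFD1 (log2 0.18) and NPL4 (log2 0.34) were nearer the all-gene median, as was SSM4 (log2 0.25), the other ligase, also called DOA10.

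Glycan and lipid attachment followed the same uneven course. N-glycan precursor genes had a median log2 ratio of 0.31, with 18 of 23 above 0 and 3 at least 2-fold higher: the dolichol kinase gene SEC59 (63.2 with DTT against 26.2 in control), the amino sugar gene GFA1 (log2 1.03) and the mannosyltransferase gene ALG12 (log2 1.02). The subunits of oligosaccharyltransferase, which transfers the finished glycan, stood lower (median log2 0.16, 0 of 9 past 2-fold), from OST2 at a log2 ratio of 0.73 to OST1 at a log2 ratio of -0.65. Among the genes that build the glycosylphosphatidylinositol (GPI) anchor, 4 of 20 were 2-fold higher although the list's median log2 ratio was 0.10. MCD4, an ethanolamine phosphate transferase gene, read 705 with DTT and 192 in control. The transamidase subunits GPI17 (109.8 with DTT against 34.2 in control) and GPI16 (516 with DTT against 238 in control) were higher too, while GPI8, the catalytic subunit of that complex, was at a log2 ratio of 0.15 and its partner GAA1 at a log2 ratio of 0.11. GWT1, which acylates inositol early in the pathway, stood at a log2 ratio of 1.29. O-mannosylation had a median log2 ratio of 0.055 and 3 of 13 past 2-fold, PMT3 (246 with DTT against 61.6 in control), KTR1 (log2 1.25) and MNT3 (log2 1.04), with PMT4 at a log2 ratio of -0.57.

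Of the vesicle transport lists only that of the coat at the ER exit stood apart. In the whole theme 5 of 82 genes (6.10%) were 2-fold higher, against 4.4% of all measured genes. The COPII coat, which forms vesicles leaving the ER, had a median log2 ratio of 0.56 with 9 of 10 members above 0. The cargo adaptor SFB3 read 544 with DTT and 139 in control, its paralogue SFB2 58.1 with DTT against 26.7 in control, and the standard adaptor SEC24 stood at a log2 ratio of 0.70. The outer coat genes SEC31 (log2 0.22) and SEC13 (log2 -0.035) were closer to the all-gene median. The cargo receptor list stood at a median log2 ratio of 0.16 with 1 gene past 2-fold, ERV29, the receptor for soluble cargo (288 with DTT against 101 in control). COPI, the coat of return traffic, had a median log2 ratio of 0.28; SEC27 (log2 0.99), RET3 (log2 0.96) and SEC26 (log2 0.92) were just under the limit and the Arf exchange factor gene GEA1 was 2-fold lower (log2 -1.15). Tethers and SNAREs (median log2 0.0042) and the exocyst list (median log2 0.059) lay near the all-gene median. SEC17, which recycles SNAREs, was just past 2-fold (log2 1.01), and the exocyst subunit SEC6 read 139.9 with DTT against 51.4 in control.

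The cell wall held genes of both directions. The integrity pathway (median log2 -0.11) had 1 of 17 genes 2-fold higher and 1 lower. Neither it nor the glucan and chitin list (median log2 -0.025) stood apart. Over all measured genes 4.4% were 2-fold higher and 6.94% lower. The integrity list's shares and the lower share of the glucan and chitin list were near these. Of the cell wall integrity pathway, the kinase gene SLT2 read 271 with DTT and 64.3 in control, and its target transcription factor gene RLM1 stood at a log2 ratio of 0.64, while the upstream kinase genes BCK1 (log2 -0.62) and MKK1 (log2 -0.37) were below 0, and the sensor gene WSC4 was 2-fold lower (54 with DTT against 234 in control). Of the glucan and chitin enzymes 3 of 23 were 2-fold higher and 2 were lower: beside GSC2 the chitin synthase export factor CHS7 (301 with DTT against 117 in control) and the chitin crosslinker CRH1 (1019 with DTT against 405 in control) were higher, and the paralogue UTR2 (log2 -1.33) and the glucanosyltransferase-like gene GAS3 (log2 -1.74) lower. FKS1, the glucan synthase subunit of growing cells and paralogue of GSC2, was at a log2 ratio of -0.025. Covalently bound wall proteins had a median log2 ratio of -0.49, with 3 of 20 at least 2-fold higher and 6 lower. The GPI-anchored proteases YPS1 (1078 with DTT against 279 in control) and YPS3 (513 with DTT against 112 in control) joined NCW2 on the higher side. On the lower side were TIP1 (571 with DTT against 2070.3 in control), PIR1 (log2 -1.63), PST1 (log2 -1.55), PIR3 (log2 -1.45) and TIR1 (log2 -1.45), beside PRY3. PRM5, a wall stress gene below the control median that was named after its values were seen, read 207 with DTT and 26.5 in control.

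Genes for separating daughter cells from mothers had the lowest median of all lists, -1.63, with 11 of 15 at least 2-fold lower. The enzymes that digest the septum were among them, namely the chitinase CTS1 (766 with DTT against 1652 in control) and the glucanases DSE2 (330.1 with DTT against 1053 in control), SCW11 (39.9 with DTT against 142 in control) and DSE4 (37.9 with DTT against 145 in control), as was SUN4 (log2 -2.02). ASH1, a daughter-specific repressor of mating type switching, stood at a log2 ratio of -1.71, and the transcription factor gene SWI5, which drives several of these genes, at a log2 ratio of -0.77. SIM1, a relative of SUN4, was higher (log2 1.11), and the upstream kinase gene CBK1 was at a log2 ratio of 0.52. Because the arrays read bulk cultures, fewer cells at the stage that uses these genes and less transcript in each cell cannot be told apart, here and for the other cell cycle genes.

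Mating genes were mostly lower in the parts that make an a cell and mixed in the signalling parts. STE2, the pheromone receptor, read 79.2 with DTT and 155 in control, the a-factor exporter STE6 48 with DTT against 119.8 in control, the agglutinin subunit AGA2 25.4 with DTT against 74 in control, and MFA2 and FAR1 were lower still. BAR1, the secreted protease that degrades alpha-factor, went the other way, 384 with DTT against 101 in control. MFA1, the other a-factor gene, read 215 with DTT against 246 in control (log2 -0.23). The agglutinin gene AGA1 was at a log2 ratio of 0.043. The kinases STE11 (log2 0.60) and FUS3 (log2 0.40) and the transcription factor STE12 (log2 0.50) were above 0 and within 2-fold. The G protein subunits STE4 (log2 -0.62) and GPA1 (log2 -0.31), the kinase STE7 (log2 -0.090) and the scaffold STE5 (log2 -0.010) were below 0 and within 2-fold, and the pheromone-induced genes PRM1 (log2 1.19) and KAR4 (log2 1.13) were past 2-fold on the higher side. The 6 measured a cell genes had a median log2 ratio of -1.18 (4 at least 2-fold lower and 1 higher). The full list with the signalling genes had a median log2 ratio of -0.050, with 3 of 24 at least 2-fold higher and 5 lower.

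Lists for uptake of nutrients other than glucose did not stand apart, though most of their genes past 2-fold were on the lower side. Median log2 ratios were -0.37 for phosphate, -0.14 for amino acid permeases and -0.16 for iron, zinc and copper. In these lists 4 of 16, 6 of 15 and 8 of 25 genes were above 0. Of all measured genes 4.4% were 2-fold higher and 6.94% lower. The low-affinity glucose transporter HXT1 read 688 with DTT and 279 in control and HXT5, a transporter of slow growth, 120.2 with DTT against 22.6 in control, whose log2 ratio of 2.37 was 1.79 with a pseudocount of 16, whereas the high-affinity HXT6 and HXT7 (211 with DTT against 751 in control) were lower. Their list held 2 genes 2-fold higher and 2 lower of 12. In the phosphate regulon 4 of 16 genes were 2-fold lower and 0 higher: PHO3, its regulated relative PHO5 (30 with DTT against 94 in control) and the transporters PHO84 (403 with DTT against 990.5 in control) and PHO90 (log2 -1.31). PHO3 and PHO5 are neighbours of similar sequence. The amino acid permeases had 3 of 15 at least 2-fold lower and 0 higher, SAM3 for S-adenosylmethionine (log2 -1.60), PUT4 for proline (log2 -1.17) and DIP5 for acidic amino acids (log2 -1.02). Iron uptake was lower at the plasma membrane ferroxidase and permease pair, FET3 (399.5 with DTT against 1542 in control) and FTR1 (log2 -1.10), on a list with 3 of 25 members past 2-fold on the lower side and 1 on the higher. That 1 was TIS11, which marks transcripts of iron-using proteins for decay (140.2 with DTT against 38.1 in control). Eisosome proteins, which line furrows of the plasma membrane, stood apart at a median log2 ratio of -0.84; the core proteins PIL1 (log2 -0.94) and LSP1 (log2 -0.84) were within 2-fold, SUR7 (log2 -1.30) and NCE102 past it, and PUN1, a relative of SUR7, was higher (584 with DTT against 166 in control).

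Calcium signalling stood apart on the higher side (median log2 0.42, 4 of 15 at least 2-fold higher, 0 lower). Beside CMK2 these were RCN2 (418 with DTT against 95.8 in control) and RCN1 (78 with DTT against 28.4 in control), both regulators of the phosphatase calcineurin, and the vacuolar calcium pump PMC1 (131 with DTT against 53.1 in control). PMR1, the calcium pump of the Golgi, was at a log2 ratio of 0.81 and CRZ1, the transcription factor that calcineurin activates, at a log2 ratio of 0.42. The subunits of calcineurin itself, CNA1 (log2 -0.21), CMP2 (log2 -0.042) and CNB1 (log2 0.087), lay close to the all-gene median.

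Stress groups outside the ER were higher at particular enzymes. Glycerol synthesis was represented by GPP2 (346 with DTT against 134 in control), GPD1 (1530 with DTT against 604 in control) and GPP1 (1100.2 with DTT against 469 in control), while the glycogen phosphorylase gene GPH1 was 2-fold lower (log2 -1.03). The list as a whole (median log2 0.30) stood apart under only 3 of 10 other settings. Of the redox genes, the glutathione peroxidase GPX2 (140 with DTT against 38 in control), the mitochondrial thioredoxin reductase TRR2 (log2 1.19) and TRX2 were 3 of 32 past 2-fold, with a median log2 ratio of 0.25. Autophagy genes had a median log2 ratio of 0.43 over 15 measured of 27; ATG5 (71.8 with DTT against 19.1 in control), part of the machinery that attaches Atg8 to membranes, and the vacuolar lipase ATG15 (log2 1.09) were past 2-fold, ATG8 itself stood at a log2 ratio of 0.43, and with the floor at the 60th percentile the median was 0.16. Of the vacuolar protease list 3 of 12 were past 2-fold, all higher, among them the protease PRB1 (655 with DTT against 229 in control) and the aminopeptidase DAP2 (103 with DTT against 40.3 in control). The vacuolar mannosidase gene AMS1, on no list and named after its values were seen, read 161 with DTT against 19.8 in control. Proteasome subunits lay mostly just above 0 (median log2 0.18, 29 of 38), RPN1 alone past 2-fold, with their transcription factor gene RPN4 at a log2 ratio of -0.32. Cytosolic chaperones had a median log2 ratio of -0.14, HSP26 was 2-fold lower (log2 -1.17), SSA1 stood at a log2 ratio of -0.74, a value that was 0.11 under quantile scaling, and the heat shock factor gene HSF1 was 2-fold higher (201 with DTT against 78.8 in control).

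The genes that make ribosomes formed the largest block of any theme on the lower side. Large subunit assembly factors had a median log2 ratio of -1.01 with 31 of 61 at least 2-fold lower and 1 above 0, SQT1 (log2 0.25), a chaperone of a ribosomal protein. The lowest were NOP13 (45.7 with DTT against 179 in control), SDA1 (22.8 with DTT against 85.1 in control) and the helicase gene HAS1 (39.3 with DTT against 125 in control). Small subunit assembly factors had a median log2 ratio of -0.87, with 18 of 46 at least 2-fold lower and 0 above 0. UTP23 (52.2 with DTT against 185 in control), IMP4 (40.9 with DTT against 117 in control) and UTP18 (68.2 with DTT against 192 in control) led there, and the methylase NOP1 (log2 -0.93), which acts on ribosomal RNA, was within 2-fold. The machinery that transcribes ribosomal and transfer RNA was lower with them (median log2 -0.68, 10 of 37 at least 2-fold lower and 0 higher). RNA polymerase I subunits were the lowest of that list, RPA43 (28.7 with DTT against 103 in control), RPA34 (log2 -1.45), RPA135 (log2 -1.40), RPA190 (log2 -1.37) and RPA12 (log2 -1.35), and RPC40, which polymerase III shares, stood at a log2 ratio of -1.15. The largest polymerase III subunit RPO31 was at a log2 ratio of -0.24, and MAF1, the repressor of polymerase III, at a log2 ratio of 0.47. Transfer RNA modification enzymes had a median log2 ratio of -0.65 and 10 of 36 at least 2-fold lower, led by the dihydrouridine synthase DUS3 (30.7 with DTT against 77.8 in control) and the pseudouridine synthase PUS1 (log2 -1.37).

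Genes of the translation machinery itself had medians nearer to 0. Ribosomal proteins of the large subunit had a median log2 ratio of -0.45 (2 of 47 at least 2-fold lower, 0 higher) and those of the small subunit -0.45 (1 of 34 lower, 0 higher). Of these genes 47 of 81 (large) and 34 of 57 (small) were measured; each of the others has no probe set that names it alone. RPL36A was the lowest (3173 with DTT against 7833 in control), a log2 ratio of -1.34 that was -0.72, within 2-fold, under quantile scaling. It was not alone in depending on the scaling. Over the other settings RPL22A (log2 -0.82) rose to at most -0.37, RPS22A (log2 -0.79) to 0.0 and RPS1A (log2 -0.93) to -0.49. In the summed intensity of all measured genes, large subunit proteins held 8.56% with DTT and 10.5% in control and small subunit proteins 6.40% with DTT and 7.93% in control; these are shares of signal and not of molecules, because probe sets differ in brightness per molecule. By the same measure large subunit assembly factors held 0.455% with DTT and 0.827% in control, and the ER Hsp70 group 0.406% with DTT and 0.174% in control. Initiation factors had a median log2 ratio of -0.51 with 1 of 29 above 0, the kinase activator GCN1 (log2 0.28), and the cap-binding protein gene CDC33 stood at a log2 ratio of -0.82. Elongation and termination factors had a median log2 ratio of -0.50, ANB1 (log2 -1.36), the form of elongation factor eIF5A made without oxygen, being past 2-fold, and the aminoacyl-tRNA synthetases -0.32, with 0 of 22 past it.

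The respiratory chain and purine synthesis stood apart on the lower side. The respiratory chain and ATP synthase had a median log2 ratio of -0.82 with 11 of 38 at least 2-fold lower, among them the cytochrome oxidase subunits COX5A (188 with DTT against 527 in control) and COX4 (104 with DTT against 260.4 in control), cytochrome c1 (CYT1, log2 -1.30), the Rieske protein RIP1 (log2 -1.23), the ATP synthase subunit ATP2 (log2 -1.28) and HAP4 (log2 -1.08), the activator of respiratory genes. COX5B, the low-oxygen form of COX5A, was at a log2 ratio of 0.083, and the 1 gene past 2-fold on the higher side was STF2, for a factor that stabilises the inhibited ATP synthase (827 with DTT against 208 in control). Mitochondrial ribosomal proteins (median log2 -0.089, 0 of 64 past 2-fold in either direction) and mitochondrial protein import (median log2 0.0041, 0 of 33) stayed near the all-gene median. The citric acid cycle list did not stand apart (median log2 -0.15), with 2 of 29 past 2-fold on the higher side and 2 on the lower, the lower share being near that of all genes. In it aconitase (ACO1, log2 -1.45) and malic enzyme (MAE1, log2 -1.84) were lower and the pyruvate carboxylase PYC1 (345 with DTT against 105 in control) and the succinyl-CoA ligase subunit LSC2 (log2 1.32) higher. Purine synthesis and salvage had a median log2 ratio of -0.55 with 5 of 25 at least 2-fold lower: AAH1, GUA1, the last enzyme of GMP synthesis (286 with DTT against 926 in control), the salvage enzyme HPT1 (log2 -1.25), PRS4 (log2 -1.22) and ADE12 (log2 -1.15).

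DNA replication genes had a median log2 ratio of -0.57, with 9 of 33 at least 2-fold lower and 0 higher. RNR1, the large subunit of the enzyme that makes deoxynucleotides, read 148 with DTT against 640.4 in control, and its partners RNR2 and RNR4 were at log2 ratios of -0.54 and -0.56. The polymerase alpha genes POL12 (log2 -1.60), POL1 (log2 -1.43) and PRI2 (log2 -1.41), the sliding clamp POL30 (51.5 with DTT against 122 in control) and the helicase subunit MCM5 (log2 -1.39) were 2-fold lower. PRI1, also a polymerase alpha gene, was the highest of the list (log2 0.47). With RFC5 (log2 0.36) and CTF4 (log2 0.15) it made up the 3 of 33 above 0. MCM7 lay above the floor in control only (14.2 with DTT against 64 in control), at least 4.13-fold lower. Of the cyclin list 4 of 22 were 2-fold lower, the mitotic regulators CDC5 (59.1 with DTT against 171 in control) and CDC20 (22.5 with DTT against 63.7 in control) and the cyclins PCL9 (log2 -1.19) and CLB5 (log2 -1.01), and the G1 cyclin PCL1 was higher (log2 1.15). The histone list had 4 measured genes, among them the H2B genes HTB2 (684 with DTT against 1334 in control) and HTB1 (log2 -0.48).

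In amino acid and lipid synthesis a few enzymes were past 2-fold. Sulphate assimilation and methionine synthesis stood at a median log2 ratio of 0.32, MET14 (238 with DTT against 58.3 in control) and MET3 (143 with DTT against 35.4 in control), which activate sulphate, and SAM2 (276 with DTT against 109 in control), which makes S-adenosylmethionine, being 2-fold higher. The near-identical SAM1 stood at a log2 ratio of -0.99, and with the floor at the 60th percentile the list's median log2 ratio was -0.17. Of the other amino acid enzymes (median log2 -0.10), 2 of 52 were past 2-fold on the higher side and 4 on the lower, shares near those of all genes. LEU1 (677 with DTT against 225 in control) and GLN1 (1234 with DTT against 467 in control) were higher and LEU9 (log2 -1.63), CPA1 (log2 -1.23), LYS4 (log2 -1.16) and ILV3 (log2 -1.05) lower. In phospholipid synthesis SCS3 (516 with DTT against 117 in control), the choline kinase CKI1 (log2 1.17) and the methyltransferase OPI3 (335 with DTT against 145 in control) were 2-fold higher and 0 of 31 lower. ORM2, a brake on sphingolipid synthesis, read 1494 with DTT against 482 in control, with its paralogue ORM1 at a log2 ratio of -0.44 and the ceramide-using enzyme AUR1 at a log2 ratio of -1.09; that list had 1 higher and 1 lower past 2-fold of 23. Of 16 fatty acid genes 2 were past 2-fold on the lower side, among them the elongase ELO1 (log2 -1.39), and the sterol list had 0 of 27 genes past 2-fold in either direction.

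Lists of glycolysis (median log2 -0.21), cytoskeleton (median log2 0.17), nuclear transport (median log2 -0.14), vacuolar ATPase (median log2 -0.084), CCT and ribosome-bound chaperones (median log2 -0.33) and mRNA decay (median log2 -0.082) did not stand apart. Their measured members past 2-fold were ALD4 (log2 -1.08), TPM2 (log2 1.22) and the importin gene KAP123 (log2 -1.33).

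**Figure D4:**
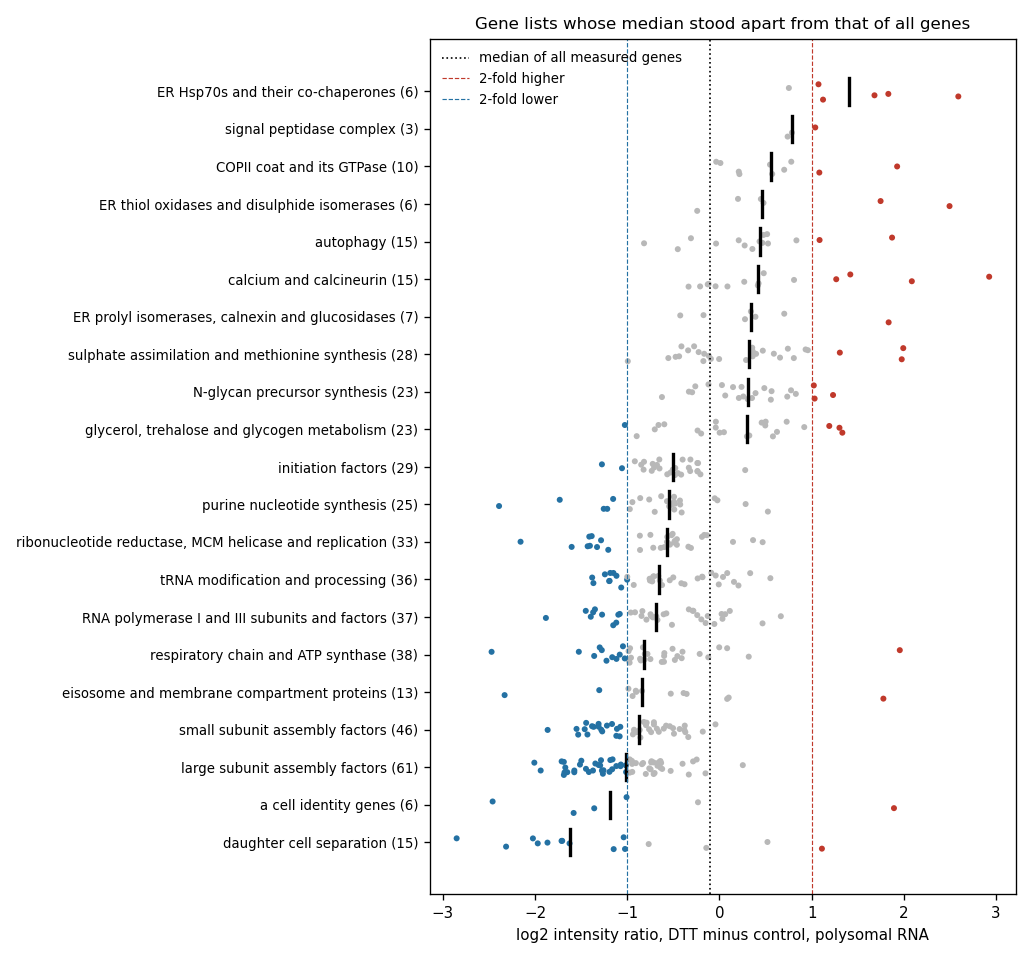
Log2 ratio, DTT minus control, of every measured member (points; red past 2-fold higher, blue past 2-fold lower) of the 21 lists whose median (black bar) lay at least 0.4 from the median of all genes (dotted line); the number of measured members is in brackets. The medians run from 1.40 for the ER Hsp70 group to -1.63 for daughter cell separation.

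Some genes could be read on 1 array only. Above the floor with DTT alone were 203 genes and in control alone 184, and for these the floor of the other array gives a lower bound on the fold; it reached 2-fold for 28 of the DTT-only and 23 of the control-only genes. The highest with DTT was the invasive growth gene DIA1 (393.8 with DTT against 16.2 in control, at least 21.8-fold higher), followed by MNC1 (289.8 with DTT against 10.9 in control), ULI1 (200.1 with DTT against 11.8 in control, at least 11.1-fold), the ER membrane protein gene YET2 (180.3 with DTT against 11.6 in control, at least 9.97-fold), MPD1 and COS10 (75.7 with DTT against 10.5 in control, at least 4.19-fold). ULI1 is known as a gene induced under ER stress. In control alone the highest after MCM7 were NRP1 (15.6 with DTT against 56.7 in control, at least 3.66-fold lower with DTT), RRT5 (13.8 with DTT against 49.5 in control), the glucose repressor gene MIG1 (15.1 with DTT against 49.1 in control, at least 3.17-fold lower) and the small subunit assembly factors KRE33 (14 with DTT against 44.9 in control) and LTV1 (15.3 with DTT against 44.1 in control). The highest bound was 21.8-fold on the higher side and 4.13-fold on the lower.

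Brightness and length were set beside the change as well. In 4 groups of equal size from dim to bright, the median log2 ratio was -0.14, -0.042, -0.049 and -0.16. The share of genes 2-fold higher was 1.58%, 5.22%, 5.78% and 5.03%, and the share 2-fold lower 5.40%, 7.08%, 8.76% and 6.52%. Measured genes had to lie above the floor on both arrays, which limits the ratios that the dimmest group can show. In 4 groups by gene length, which is coding length for nearly all yeast genes, the median log2 ratio was -0.13, -0.11, -0.12 and -0.051 from short to long. Of the 239 measured genes without a standard name 24 were 2-fold higher and 12 lower, against 165 and 286 of the 4055 named genes.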

How the data were processed

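Polysomal RNA of DTT-treated and of control cells was read on 1 Affymetrix yeast array each. Each deposited table gives a linear intensity for every probe set, scaled by the authors: trimmed of 2% at either end, the mean was 99.96 with DTT and 99.95 in control. The program that summarised the probes was not given in the sources used. RNA of 3 extracts was pooled per group, per the labels' protocols. Of 9335 probe sets, 6504 name 1 gene (5656 genes, matched by gene ID, 0 symbols changed, names from assembly R64), 328 several, 2443 none and 60 are controls. Every column belongs to a sample (0 without).

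Intensities above each array's 40th percentile on both arrays were taken to log2, centred per array on the median over 5230 measured probe sets without controls, and averaged per gene (Python 3.11.15, pandas 2.3.3, loess from statsmodels 0.14.6). The steps were tested on simulated data. With 1 array a group no p-value was computed; genes were counted past 2-fold. The comparison and the lists were chosen with earlier results of these data known. Genes named are the 12 highest and 12 lowest above both medians, members of a list past 2-fold, its 4 highest and lowest and first 3, the 6 highest bounds on each side and the strain markers. Chosen after their values were seen were HPF1, AMS1, PRM5, the Ty and COS probe sets, the genes of adjacent pairs and these list members: ATG8, CDC48, CMP2, CNB1, CRZ1, FUS3, GAA1, GPA1, GPI8, NPL4, ORM1, PMR1, RNR4, RPO31, SSM4, STE4, STE5, STE7, STE12 and UFD1. Alternatives changed the floor, centring, gene summary, limit and pseudocount. Sequence features and promoter motifs were not analysed here.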

Additional observations from a re-analysis of the deposited data

Results flagged for a closer look

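Probe sets that name no gene in the platform table were left out of every gene value above, and 89 of the 412 measured ones (21.6%) were at least 2-fold higher with DTT than in control, which flags a signal outside the main measurement; 25 (6.07%) were 2-fold lower. Probe sets not of the plain kind, most of which can match several similar transcripts, held 80 of the 89, that is 40.8% of the 196 measured of that kind, against 9 of 216 (4.17%) among plain ones. The same kinds also differed among probe sets naming 1 gene (11.4% of 377 not plain and 4.20% of 4237 plain were 2-fold higher) and were high among those naming several genes (23.2% of 198 not plain). The transcripts they read are not named here.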

How the results depend on the processing

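With 189 genes 2-fold higher and 298 lower as reported, the counts were 105 and 190 under a floor at the 60th percentile, 443 and 531 without any floor, 335 and 170 when centred on the hybridisation controls, and 73 and 62 at a 3-fold limit; with a pseudocount of 16 the lower count was 179. The other 6 settings of floor, scaling and gene summary kept both counts within 1.5 times. Of the genes called as reported and still measured, 104 of 115 higher and 173 of 174 lower were called again with the higher floor, and 185 of 189 and 217 of 298 with none. The median change of all measured genes, -0.10, was 0.15 with hybridisation controls and between -0.13 and -0.0021 otherwise. The median of sulphate assimilation and methionine synthesis, 0.32, reversed to -0.17 with the floor at the 60th percentile; the cause was not tested. Glycerol and glycogen, sulphate assimilation, initiation factors, N-glycan precursors, autophagy, purine and replication genes and the ER prolyl isomerase group lost their distance of 0.4 in at least 1 setting; the other 13 lists that stood apart kept it in all 10. Of the recomputed values of list members and extreme genes 6163 stayed within 0.43 and 52 moved further, among them HAC1 (1.93 with no floor) and GSC2 (2.90 with a pseudocount); 0 genes past 2-fold changed sign. No paired analysis was possible because each group holds 1 array. The planned sequence features and promoter motifs were not run. With 1 array a group, the number of arrays limits the precision of every value.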

Other observations

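Among the probe sets that name several genes, those naming open reading frames of Ty2 retrotransposons were higher on the DTT array. The 31 measured probe sets whose names include YCL019W or YFL002W-A, open reading frames of Ty2 elements (many of these probe sets name other elements as well), had log2 ratios from 0.34 to 4.23 with a median of 1.17, all above 0, and 18 were at least 2-fold higher. The 4 highest read 1095 with DTT against 56.7 in control (18.8-fold), 1135.7 with DTT against 68.5 in control (16.1-fold), 1718 with DTT against 187 in control (8.94-fold) and 1841.5 with DTT against 294.6 in control (6.09-fold); those 4 name the same 10 open reading frames. YGR109W-B, an open reading frame of the Ty3 element read by 14 probe sets of its own, stood at a log2 ratio of 1.68 (probe sets from 0.39 to 3.62). A plain probe set naming YMR045C and YBL005W-B, open reading frames of other elements, together with the gene PDR3 went the other way. It read 35.2 with DTT against 79.5 in control (log2 -1.21). Whether that signal comes from an element or from PDR3 cannot be told. Because elements of a family are nearly identical, which copies contribute cannot be told from these probe sets. They were looked up after the values of the probe sets naming several genes had been seen.

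The COS genes, subtelomeric relatives that sort membrane proteins, had 14 measured probe sets, each with a log2 ratio above 0. COS8 had the highest probe set (242 with DTT against 25.6 in control, log2 3.20), a probe set shared by COS3 and COS2 read 426.9 with DTT against 89.7 in control and COS6 152.9 with DTT against 67.5 in control, while the 2 probe sets of COS9 stood at log2 ratios of 0.38 and 0.089. Probe sets of such similar genes are not independent readings.

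Of 3209 pairs of adjacent genes measured on both arrays, 14 had both genes 2-fold higher, 23 both 2-fold lower and 14 one of each. Of all 4294 measured genes 4.4% were 2-fold higher and 6.94% lower. How many such pairs those shares would give was not computed, so the counts are not read as a neighbour effect. One stretch held 4 neighbours that were all higher, HXT1 (log2 1.27), HXT5 (log2 2.37), PAL2 (log2 2.44) and the COPII adaptor gene SFB3 (log2 1.93). The adjacent ER folding genes EUG1 (log2 1.75) and FPR2 (log2 1.83) and the proteases YPS1 (log2 1.91) and YPS3 (log2 2.15) were higher together, RPA43 (log2 -1.88) and RPA190 (log2 -1.37) of RNA polymerase I lower together. INA1 (log2 -2.20) and its neighbour PUN1 (log2 1.78), and SCJ1 (log2 1.12) and its neighbour GAS3 (log2 -1.74), went opposite ways.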
